A study of Sus scrofa with 4 samples.

Results

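miR-103 and miR-107 were followed through 4 small RNA libraries of primary pig vascular stem cells. The members are the Sus scrofa hairpins listed as mir-103 and mir-107, 2 of the 189 miRNAs with a read. miR-103 has 2 hairpin copies, and because the copies share nearly all their reads, the larger copy was taken once in each library. The cells were grown from dorsal longissimus muscle (IVSC) or from subcutaneous fat (SVSC), and each culture was sequenced with and without adipogenic induction (MDI). The 4 groups were IVSC MDI, IVSC, SVSC MDI and SVSC, with 1 library each, so no value below has a replicate. The induction medium held 0.5 mM IBMX, 0.25 µM dexamethasone and 5 mg/l insulin. After 3 days the medium no longer held IBMX or dexamethasone, growth medium returned at day 6, and the cells then had 3 or 4 further days, without a statement of which library had which. All cells were at passage 1 in 20% serum. IVSC and SVSC were plated at different densities, so density and tissue of origin cannot be told apart. The labels give every library, muscle-derived ones included, the cell type name of an adipose-derived vascular stem cell. Whether 1 animal or several gave the cultures is not stated.

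miR-103 and miR-107 lie inside introns of the pantothenate kinase (PANK) genes, whose enzymes catalyse the first step in making coenzyme A, the carrier of acyl groups in fat synthesis and breakdown. In the RefSeq gene table for Sscrofa11.1, the pig genes MIR103-1, MIR103-2 and MIR107 lie within PANK3, PANK2 and PANK1, the last also within a non-coding RNA gene, and the hairpins were matched to these genes by name. The mature miRNAs share their seed, the stretch near the 5′ end that pairs with target mRNAs, and differ only near the 3′ end. In mice they lower insulin sensitivity in liver and fat, with the mRNA of caveolin-1, a scaffold protein near the insulin receptor, among their targets. miR-103 has been reported to promote the differentiation of mouse preadipocytes.

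Values are CPM, all reads on the hairpin scaled to the miRNA reads of the library, unless another kind of read is named. Ranges in parentheses are exact 95% intervals that cover no more than the error of counting, because amplified reads that carry no molecular identifier are not separate molecules. A miRNA was said to rise or fall, or to be higher or lower, as a call when a pair of libraries differed 2-fold or more and the interval of the ratio did not hold 1. The libraries held 14810112 (IVSC MDI), 13252168 (IVSC), 2573249 (SVSC MDI) and 17937121 (SVSC) miRNA reads. The 3 reads that a count of 0 allows correspond to 0.203, 0.226, 1.17 and 0.167 CPM in that order, so SVSC MDI is the least precise. These are bulk samples, in which fewer cells of a kind and less of a miRNA per cell cannot be told apart. As markers of other cells, 5 skeletal muscle miRNAs summed to 1137 CPM in IVSC MDI, 6275 in IVSC, 888 in SVSC MDI and 1853 in SVSC, and the most muscle-specific of them, miR-206, had 140 CPM in IVSC MDI, 4874 in IVSC, 1.55 in SVSC MDI and 2.79 in SVSC. The liver miRNA miR-122 had 3.11 CPM in IVSC MDI, 10.5 in IVSC, 1.94 in SVSC MDI and 24.1 in SVSC. Of 2 neuronal miRNAs miR-9 had between 12.7 and 77.3 CPM and miR-124 was not listed. The 2 of 4 blood miRNAs that were listed summed to 34.9 CPM or less. The endothelial miR-126 lay between 52.6 and 134 CPM, and of 6 epithelial miRNAs only miR-205 was listed, at 3.50 CPM or less. The mesenchymal and perivascular list, all 5 members detected, summed to between 262057 and 409082 CPM.

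miR-103 was a high-abundance miRNA, and it stood apart in undifferentiated fat-derived cells. It had 2738 CPM in IVSC MDI (2711 to 2765; 40551 reads) and 2688 in IVSC (2661 to 2717; 35628 reads). It had 2256 CPM in SVSC MDI (2198 to 2314; 5804 reads) and 6979 in SVSC (6941 to 7018; 125188 reads). SVSC was thus the high library, and the other 3 lay close together, with SVSC MDI the lowest of all. By abundance it ranked 21 of 186 miRNAs in IVSC MDI, 25 of 187 in IVSC, 28 of 181 in SVSC MDI and 10 of 182 in SVSC.

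miR-107, with the same seed, was far scarcer. It had 26.3 CPM in IVSC MDI (23.7 to 29.0; 389 reads) and 44.2 in IVSC (40.7 to 47.9; 586 reads). It had 37.7 CPM in SVSC MDI (30.6 to 46.0; 97 reads) and 91.0 in SVSC (86.6 to 95.5; 1632 reads). SVSC was again the high library, IVSC MDI was the lowest, and the intervals of IVSC and SVSC MDI overlapped. Its ranks were 123 in IVSC MDI, 114 in IVSC, 115 in SVSC MDI and 88 in SVSC.

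**Figure D1:**
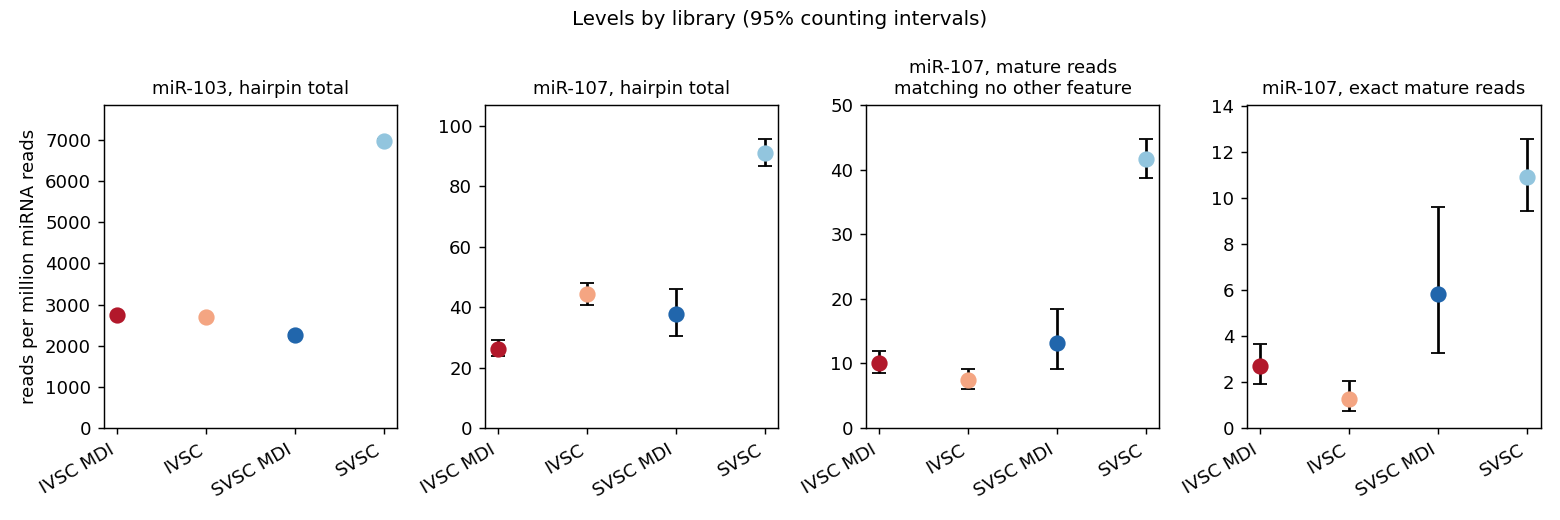
CPM (y axis, linear from 0) in each of the 4 libraries, for miR-103 hairpin reads and for 3 kinds of miR-107 read. Points are single libraries and bars are 95% counting intervals. SVSC is the highest point in all 4 panels, and IVSC lies above IVSC MDI for miR-107 hairpin reads but below it for reads that match no other feature and for exact reads.

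The kinds of read on the hairpins differed sharply between the pair. Of the miR-103 reads on the mature miRNA, 89.3% in IVSC MDI (89.0 to 89.6), 92.8% in IVSC (92.5 to 93.0), 80.4% in SVSC MDI (79.4 to 81.4) and 92.5% in SVSC (92.3 to 92.6) matched its annotated sequence exactly. The exact share of miR-103 was lower in the MDI library of both cultures, with a difference of -3.42 percentage points in IVSC and -12.1 in SVSC. Over all miRNAs with at least 100 mature reads in both libraries, the exact share was lower with MDI in 68 of 118 miRNAs in IVSC and 55 of 92 in SVSC, with median differences of -0.974 and -0.973 points over all of them. miR-103 had the 41st lowest difference in IVSC and the 16th lowest in SVSC. The deposited files of both MDI libraries carry a suffix after the word for trimming in their names, which the other files have without it. What the suffix denotes is not given, and it cannot be told apart from MDI. Reads on the rest of the miR-103 hairpin were few, at 0.533% of the total of its larger copy in IVSC MDI, 0.632% in IVSC, 1.19% in SVSC MDI (0.926 to 1.50) and 0.685% in SVSC (0.640 to 0.732).

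Which PANK gene the miR-103 reads came from could not be told. The totals of both copies lay within 1 to 103 reads of each other. Mature reads that matched only the copy in PANK2 numbered 32 in IVSC MDI, 5 in IVSC, 2 in SVSC MDI and 86 in SVSC. Those that matched only the copy in PANK3 numbered 6, 6, 4 and 23 in the same libraries. The rest of the hairpin held 216, 225, 74 and 857 reads on the PANK2 copy, against 141, 203, 69 and 816 on the PANK3 copy, and how many of these the copies share is not recorded.

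For miR-107, most mature reads were not the annotated sequence, and many did not match it alone. Exact mature reads numbered 40 in IVSC MDI, 17 in IVSC, 15 in SVSC MDI and 196 in SVSC. Mature reads that matched no other listed feature, called unshared below, numbered 150, 99, 34 and 747. The remaining mature reads, 156 in IVSC MDI, 362 in IVSC, 34 in SVSC MDI and 462 in SVSC, also matched another feature, and the files do not name it. These shared reads made up 51.0% of the mature reads of miR-107 in IVSC MDI, 78.5% in IVSC, 50% in SVSC MDI and 38.2% in SVSC. The IVSC library was thus the one in which the hairpin total rested most on reads that miR-107 shared. Per 100 mature reads of miR-103, the shared reads came to 0.387, 1.02, 0.593 and 0.372 in the same order, so they were not in a constant proportion to miR-103. The rest of the miR-107 hairpin held 21.3%, 21.3%, 29.9% and 25.9% of its reads, a far larger part than on miR-103.

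**Figure D2:**
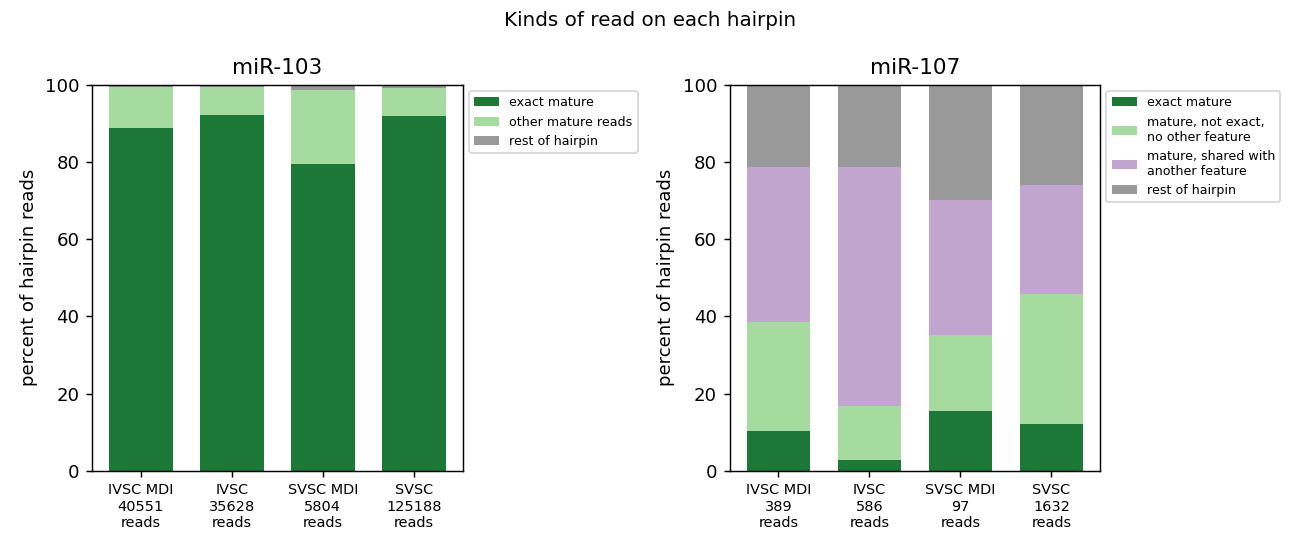
Percent of the hairpin reads (y axis) of miR-103 and of miR-107 that fall into each kind, with 1 bar per library and its number of reads under it. Exact mature reads fill most of each miR-103 bar, while in the miR-107 bars shared mature reads take 61.8% of all reads in IVSC and between 28.3% and 40.1% in the other 3 libraries.

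Free of any scaling between libraries, the reads of miR-107 per 100 reads of miR-103 were 0.959 in IVSC MDI (0.866 to 1.06), 1.64 in IVSC (1.51 to 1.78), 1.67 in SVSC MDI (1.35 to 2.04) and 1.30 in SVSC (1.24 to 1.37). On exactly matching reads the order changed, to 0.111 in IVSC MDI (0.0793 to 0.151), 0.0518 in IVSC (0.0302 to 0.0829), 0.325 in SVSC MDI (0.182 to 0.537) and 0.170 in SVSC (0.147 to 0.196). IVSC stood with SVSC MDI at the top on hairpin totals, their intervals overlapping, and was the lowest on exact reads. On either count miR-107 had fewer than 2 reads per 100 of miR-103 in every library.

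The first question was what adipogenic induction did in muscle-derived cells. miR-103 had 2738 CPM in IVSC MDI and 2688 in IVSC, a ratio of 1.02 (1.00 to 1.03), and was not called. Its log2 ratio of 0.03 lay beside a median of -0.04 over the 152 miRNAs compared. Of these 40.1% were called in either direction, 16.4% higher and 23.7% lower. miR-107 had 26.3 CPM in IVSC MDI and 44.2 in IVSC, a ratio of 0.594 (0.521 to 0.676), also short of 2-fold. On its shared reads alone the ratio was 0.386 (0.318 to 0.467), and on the rest of the hairpin 0.594 (0.445 to 0.790). On unshared mature reads it was 1.36 (1.04 to 1.77), with 150 reads in IVSC MDI and 99 in IVSC. On exact reads, scaled to miRNA reads, it was 2.11 (1.17 to 3.96), with 40 and 17 reads, levels below the 10 CPM set for a comparison. Of the cell type markers, muscle miR-206 and miR-133b, liver miR-122 and mesenchymal miR-214 were called lower in IVSC MDI and mesenchymal miR-145 and neuronal miR-9 higher. The call of miR-214 was lost under scaling to all reads and without miR-21. The part of these markers in these ratios was not tested. The direction for miR-107 in muscle-derived cells therefore depended on the kind of read counted.

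In fat-derived cells both members fell with induction. miR-103 had 2256 CPM in SVSC MDI and 6979 in SVSC, and fell 3.09-fold (3.01 to 3.18). miR-107 had 37.7 CPM in SVSC MDI and 91.0 in SVSC, and fell 2.41-fold (1.97 to 2.99). Of the 146 miRNAs compared 56.2% were called, 34.2% higher and 21.9% lower. The log2 ratios of -1.63 and -1.27 were the 15th and 23rd lowest beside a median of 0.41. Both falls were called under all 5 scalings, which gave log2 ratios from -2.13 to -1.63 for miR-103 and from -1.78 to -1.27 for miR-107. The other 4 scalings moved every log2 ratio of this comparison by between -0.50 and -0.40. Exact reads of miR-103 fell 3.58-fold (3.47 to 3.68) when scaled to miRNA reads, while reads on the rest of its hairpin, taken from the PANK2 copy in both libraries (74 and 857 reads), had a ratio of 0.602 (0.468 to 0.764). Unshared mature reads of miR-107 fell 3.15-fold (2.24 to 4.59), at 34 in SVSC MDI and 747 in SVSC. Its shared reads had a ratio of 0.513 (0.351 to 0.727), and its exact reads, 15 and 196, one of 0.533 (0.293 to 0.902) when scaled to miRNA reads. Of the 5 mesenchymal and perivascular miRNAs 3 were called higher here, but only miR-145 under the other 4 scalings, and the list summed to 409082 CPM in SVSC MDI and 262057 in SVSC. Muscle miR-133a and miR-133b were 9.18-fold and 12.2-fold higher in SVSC MDI, while muscle miR-1, which makes up most of the muscle sum, was 2.75-fold lower. Blood miR-142 was 3.59-fold and neuronal miR-9 3.49-fold higher, and liver miR-122 was 12.4-fold lower. The part of these markers in the falls was not tested.

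**Figure D3:**
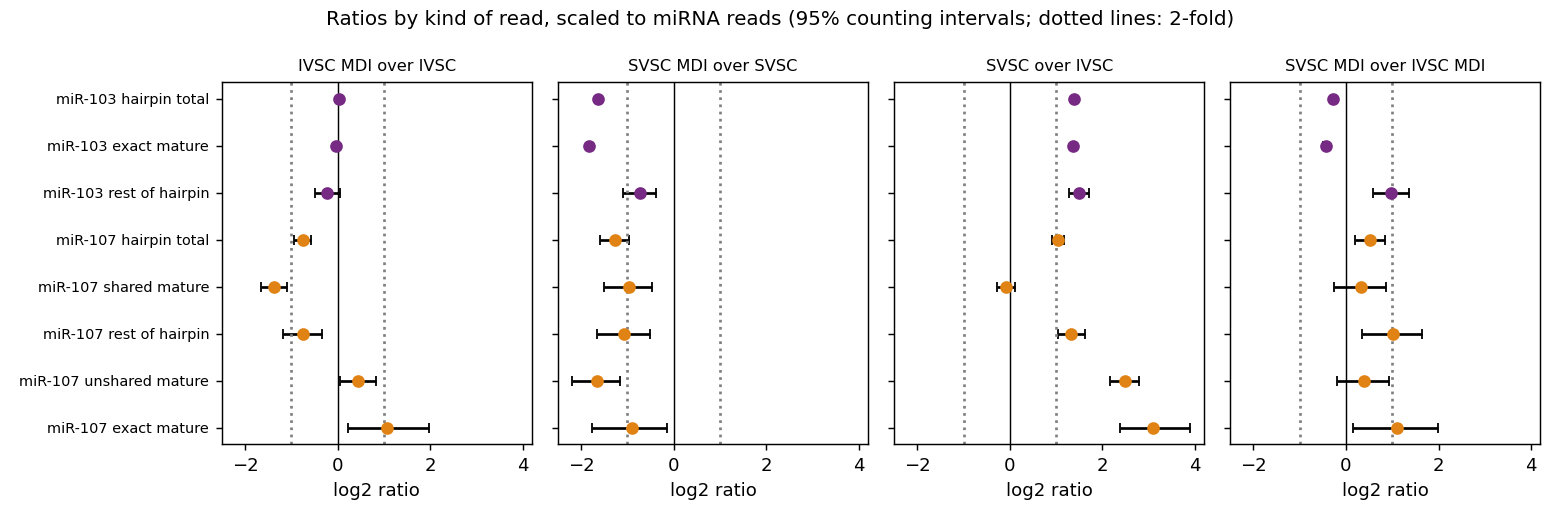
Log2 ratios (x axis) of the 4 pairs of libraries for each kind of read of miR-103 (purple) and miR-107 (orange), with 95% counting intervals. In muscle-derived cells the shared reads of miR-107 lie at -1.37 and its exact reads at 1.07, while in fat-derived cells every kind lies below 0.

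The responses of the cultures were then set against each other. The log2 ratio of miR-103 with induction was -1.63 in SVSC and 0.03 in IVSC, a difference of -1.66 (approximate interval -1.70 to -1.61), which passed 1 log2 unit. Of 155 miRNAs, 12.3% passed that limit downward and 46.5% in either direction, and miR-103 had the 10th lowest difference beside a median of 0.53. For miR-107 the difference was -0.52 (-0.87 to -0.17) on hairpin reads and was not called. On the same reads it was -1.22 with all reads as the scale and -1.003 without miR-21, both called, and -0.98 with TMM and -0.93 with DESeq2 size factors, neither called. On unshared mature reads it was -2.10 (-2.71 to -1.48), and on exact reads scaled to miRNA reads -1.98 (-3.10 to -0.87). These intervals leave out any variation from 1 culture to the next.

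Before induction the question was how fat and muscle origin differed. miR-103 was 2.60-fold higher in SVSC than in IVSC (2.57 to 2.63), at 6979 against 2688 CPM. miR-107 was 2.06-fold higher (1.87 to 2.27), at 91.0 against 44.2 CPM. Only 7.43% of the 148 miRNAs compared were called higher in SVSC and 20.9% lower, and the median log2 ratio was -0.25. The scalings gave ratios from 2.60 to 3.34 for miR-103 and from 2.06 to 2.65 for miR-107, all of them called. Unshared mature reads of miR-107 were 5.57-fold higher in SVSC (4.52 to 6.95) and its exact reads 8.52-fold higher when scaled to miRNA reads (5.19 to 14.9), whereas its shared reads had a ratio of 0.943 (0.820 to 1.08). On all mature reads of miR-107, shared and unshared, the call was lost, at 1.67-fold when scaled to mature reads and 1.94-fold when scaled to miRNA reads. Of the 5 muscle miRNAs miR-206, miR-133a and miR-133b were called lower in SVSC, while miR-1 had 1818 CPM in SVSC and 1242 in IVSC. Blood miR-142 was 5.25-fold lower, endothelial miR-126 2.55-fold lower (not called with DESeq2 size factors) and liver miR-122 2.30-fold higher in SVSC. The part of these markers in the differences was not tested.

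After induction neither member was called between the cultures on hairpin reads. miR-103 had 2256 CPM in SVSC MDI and 2738 in IVSC MDI, a ratio of 0.824 (0.801 to 0.847). miR-107 had 37.7 CPM in SVSC MDI and 26.3 in IVSC MDI, a ratio of 1.44 (1.14 to 1.80). Here 27.9% of 147 miRNAs were called (17.7% higher and 10.2% lower), and the scalings gave log2 ratios from -0.80 to -0.28 for miR-103 and from 0.00 to 0.52 for miR-107. Exact reads of miR-107, 15 and 40, gave 2.16-fold when scaled to miRNA reads (1.11 to 3.99), again from levels under 10 CPM. The rest of its hairpin, 29 and 83 reads, was 2.01-fold higher in SVSC MDI (1.27 to 3.10). The other 4 scalings moved every log2 ratio of this pair by between -0.52 and -0.04. The 2.01-fold ratio fell short of 2-fold under each of them, and the 2.16-fold ratio under all but DESeq2 size factors. Reads on the rest of the miR-103 hairpin, 74 and 216, had a ratio of 1.97 (1.49 to 2.58). Muscle miR-133a, mesenchymal miR-214 and neuronal miR-9 were called higher in SVSC MDI than in IVSC MDI, and muscle miR-206 lower. Scaled to all reads, only miR-206 of these was called, and endothelial miR-126 was called lower. Without miR-21 the call of miR-214 was lost. The part of these markers in the ratios was not tested.

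**Figure D4:**
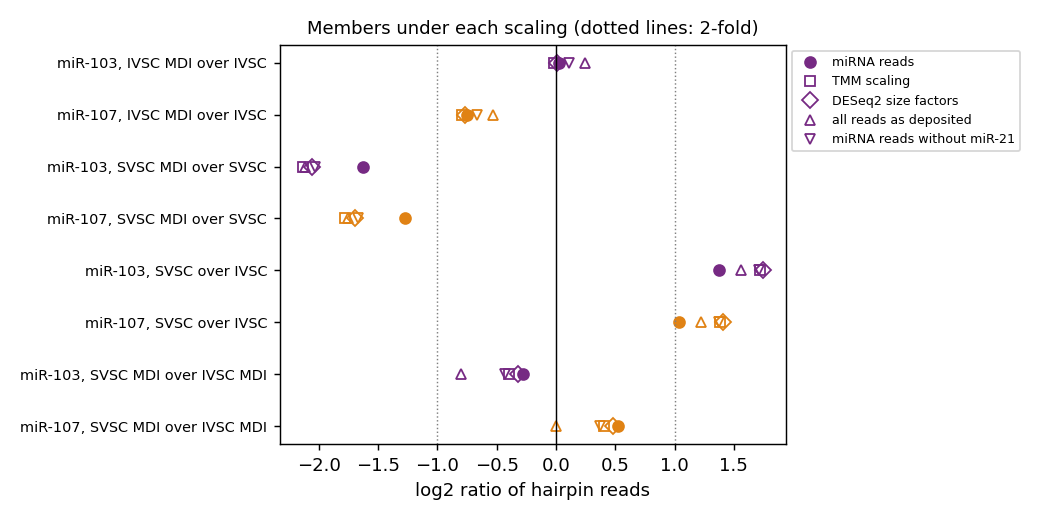
Log2 ratios (x axis) of hairpin reads of both members in the 4 pairs of libraries, with 1 symbol for each of 5 scalings. The falls with MDI in SVSC and the higher levels in SVSC than in IVSC lie beyond the 2-fold lines under every scaling drawn, and the other pairs lie inside them.

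A fit of effects shared by both cultures on all 4 libraries (edgeR's quasi-likelihood test, Benjamini-Hochberg adjustment over 179 miRNAs) called neither member. The shared MDI effect was -0.97 ± 0.58 (log2, SE) for miR-103, with an adjusted p of 0.315, and -1.18 ± 0.79 for miR-107, with an adjusted p of 0.380, where 10.6% of miRNAs passed 0.05 (6.15% higher and 4.47% lower). The shared effect of fat over muscle origin was 0.71 ± 0.58 for miR-103 (edgeR adjusted p = 0.865) and 0.95 ± 0.79 for miR-107 (edgeR adjusted p = 0.879), where 2.79% passed (0.559% higher and 2.23% lower). This fit has 1 residual degree of freedom, which holds the difference between the cultures in the MDI response. The spread it tests against was pooled over all miRNAs, so its p-values say nothing of how far repeat cultures would vary. For miR-103 the shared MDI effect stands for unlike log2 ratios, -1.63 in SVSC and 0.03 in IVSC when scaled to miRNA reads.

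The other miRNAs of the group named for miR-15 and miR-107, which carry related sequence near the 5′ end and include regulators of the cell cycle, were described by counts. Of the 7 detected, 3 fell with induction in IVSC and none rose, with a median log2 ratio of -0.79, where 23.7% of all miRNAs compared were called lower and 16.4% higher. They were miR-503 (5.14-fold), miR-15b (2.31-fold) and miR-195 (2.14-fold), all of which fell on mature reads too. Here mature reads are scaled to the mature reads of each library, so the scale changes with the kind of read. Mature reads made up 58.6% of miRNA reads in IVSC MDI, 61.4% in IVSC, 57.5% in SVSC MDI and 71.2% in SVSC. On hairpin reads scaled to all reads only miR-503 was called. With induction in SVSC, 34.2% of all miRNAs compared were called higher and 21.9% lower. There, where both members of the PANK genes fell, none of the 7 was called and their median was 0.44 beside 0.41 for all miRNAs. The other 4 scalings put that median between -0.06 and 0.04 and called miR-15a and miR-503 lower. On mature reads alone, scaled to mature reads, miR-424 and miR-497 were called higher and miR-503 lower. As 98.5% of the reads of miR-424 were mature, its call came with the change of scale. Of the reads of miR-15a 30.3% were mature, and on those, scaled to mature reads, its log2 ratio was 0.50 in IVSC and 0.93 in SVSC. Its hairpin reads, scaled to miRNA reads, gave -0.54 in IVSC and -0.95 in SVSC. Before induction, miR-503 was the one called on hairpin reads, 2.55-fold lower in SVSC than in IVSC, though not with DESeq2 size factors, and the median was -0.65. On hairpin reads 20.9% of all miRNAs compared were called lower in SVSC and 7.43% higher. On mature reads, scaled to mature reads, miR-15b (log2 ratio -1.23), miR-497 (-1.16) and miR-503 (-1.72) were called lower in SVSC. That scale lowers every ratio of this pair, and on hairpin reads miR-15b (-0.99) and miR-497 (-0.97) fell just short of 2-fold. After induction none was called and the median was 0.65, where 17.7% of all miRNAs compared were called higher and 10.2% lower.

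miR-424 and miR-16 were the most abundant of these relatives. miR-424, which lies in a cluster with miR-503, had 1744 CPM in IVSC MDI and 1366 in IVSC, and 2868 in SVSC MDI and 1528 in SVSC. miR-16, a repressor of cyclins, had 1049 CPM in IVSC MDI and 948 in IVSC, and 1410 in SVSC MDI and 1036 in SVSC. In no library was either above miR-103 except miR-424 in SVSC MDI. Of all reads of the group with both members, miR-103 took 43.0% in IVSC MDI (42.7 to 43.3), 40.03% in IVSC (39.7 to 40.4), 29.4% in SVSC MDI (28.8 to 30.1) and 63.8% in SVSC (63.6 to 64.0). miR-107 took between 0.412% and 0.832%. The group as a whole had 7663 CPM in SVSC MDI and 10936 in SVSC, and the 7 relatives alone had 5369 and 3865. With induction in fat-derived cells, miR-103 therefore made up a smaller part of the group's reads and the relatives a larger one.

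**Figure D5:**
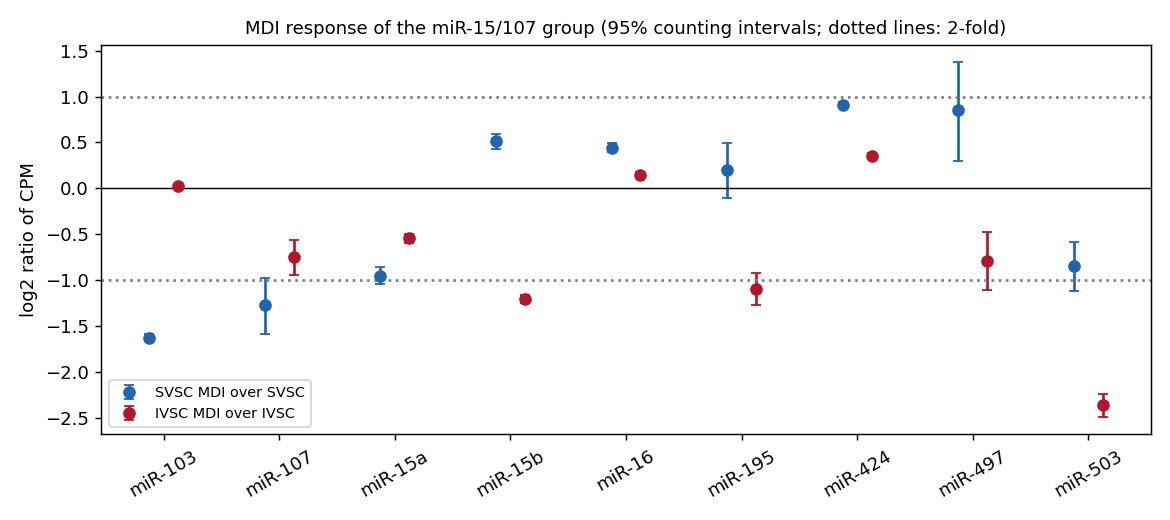
Log2 ratio of CPM with induction (y axis) for miR-103, miR-107 and the 7 other detected miRNAs of the group, in fat-derived (blue) and muscle-derived (red) cells, with 95% counting intervals. miR-103 is at -1.63 in SVSC and near 0 in IVSC, and miR-15a also lies lower in SVSC. miR-15b, miR-16, miR-195, miR-424, miR-497 and miR-503 lie higher in SVSC than in IVSC, but miR-16 not under the other 4 scalings and miR-424 not under scaling to all reads.

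Among other miRNAs from introns of metabolic genes, miR-378, from the gene of the coactivator PGC-1β, fell 2.04-fold with induction in IVSC and had a ratio of 1.35 in SVSC. The IVSC ratio did not reach 2-fold when scaled to all reads, without miR-21, or on mature reads scaled to the mature reads of each library. miR-335, from the imprinted gene MEST, had ratios of 0.957 in IVSC and 1.25 in SVSC. Neither was called on hairpin reads between fat and muscle origin, before or after induction. Before induction miR-378 lay just short of 2-fold, at 65477 CPM in SVSC and 130668 in IVSC (ratio 0.501). On mature reads, scaled to the mature reads of each library, miR-378 was called lower in SVSC than in IVSC (log2 ratio -1.21). As 99.7% of its reads were mature, that call came with the change of scale. On mature reads scaled in the same way, miR-335 was lower in SVSC MDI than in IVSC MDI (99 and 1279 mature reads, log2 ratio -1.14). miR-33a and miR-33b, of the SREBF genes, were not listed.

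Among 17 miRNAs reported to alter insulin signalling, 14 were detected. With induction 2 fell in IVSC (miR-320 and miR-378) and none rose, with a median of 0.21, and in SVSC let-7e and miR-29c rose and let-7a and miR-320 fell, with a median of 0.20 that was negative under the other 4 scalings. Over all miRNAs 23.7% were called lower and 16.4% higher in IVSC, and 21.9% lower and 34.2% higher in SVSC, so each of these counts out of 14 is a smaller share than over all miRNAs. miR-320 fell 2.26-fold in IVSC and 3.47-fold in SVSC, and only its fall in SVSC was called under all 5 scalings. The rises of let-7e and miR-29c were called under none of the other 4. Before induction let-7a was higher in SVSC than in IVSC, and miR-126 and miR-29c were lower (median 0.34), miR-126 not with DESeq2 size factors. Over all miRNAs compared 7.43% were called higher in SVSC and 20.9% lower. After induction let-7c and let-7e were higher in SVSC MDI than in IVSC MDI (median 0.02), where 17.7% of all miRNAs compared were called higher and 10.2% lower. Under scaling to all reads neither was called, miR-29b, miR-29c and miR-126 were called lower, and the median was -0.50.

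The miRNAs most like each member over the 4 libraries were found among those with a mean of at least 100 CPM, by the root mean square distance of log2 CPM after each miRNA was centred on its own mean. The nearest to miR-103 were miR-100 (0.18 log2 units), miR-185 (0.20), miR-450b (0.25), let-7a (0.28) and miR-30d (0.30). miR-100, the nearest, had 2178 CPM in IVSC MDI and 2300 in IVSC, and 1814 in SVSC MDI and 7594 in SVSC. Those nearest to miR-107 hairpin reads were miR-185 (0.18), miR-450b (0.20), let-7a (0.25), miR-15a (0.29) and miR-103 itself (0.32). miR-185 had 158 CPM in IVSC MDI and 214 in IVSC, and 163 in SVSC MDI and 410 in SVSC. These distances rest on 4 libraries and describe them only.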

How the data were processed

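Small RNAs of 16 to 35 nt from about 10 µg of total RNA were amplified for 12 cycles and read for 36 cycles, per the labels' protocols. Per the file headers, the deposited values are read counts per feature from 4 resources: Sus scrofa hairpins, Ensembl Sscrofa9.61 non-coding RNAs, piRNAs and Rfam. Each feature has counts of exact, all and uniquely matching mature reads, and of star, other and total reads. The meaning of these kinds was taken from the column names. No source used here gives the aligner or the mismatches allowed, and the submitters' processing notes name mm9 with no role. In the SVSC file 3 features without a resource name, and in the SVSC MDI file 1 unnamed sum, were left out. In the SVSC file the deposited counts of mature reads that match uniquely, held as unit other, have a damaged cell on an Rfam entry. The comparisons count hairpin entries only, but the scaling to all reads as deposited sums the totals of every entry with a resource name. In SVSC 3 of those totals were damaged and add nothing to that sum.

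CPM are scaled to the sum of miRNA reads in each library. Reads of a miRNA's copies were counted once (the largest copy plus uniquely matching mature reads of the others, and for miR-103 the larger copy alone, but for ratios of the rest of its hairpin the copy with more such reads). A miRNA was compared when either library of the pair had 10 CPM or more. Intervals are Clopper-Pearson, conditional on both counts, Poisson for a level, and Wald for a difference of log2 ratios (SciPy 1.17.1, pandas 2.3.3, NumPy 2.4.6, Python 3.11.15). The shared effects were fitted with edgeR 4.0.16 (R 4.3.3, limma 3.58.1; filterByExpr, TMM, additive in culture and MDI), with the SE worked back from F, and with DESeq2 1.42.0 as the other tool. Intervals and fit were tested on simulated data. Scaling was also tried with TMM, DESeq2 size factors, all reads as deposited and without miR-21. The members and lists were chosen with earlier results of these data known. Named are both members, the 5 nearest miRNAs by pattern, and list members that were called or had the most reads. With 1 library a group no p-value is given for any pair. Sequences of the miRNAs were not used here.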

Additional observations from a re-analysis of the deposited data

Results flagged for a closer look

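The response of miR-103 to MDI had opposite signs in the cultures, with a log2 ratio of -1.63 in SVSC and 0.03 in IVSC (difference -1.66), and the difference was not tested against replicates. The IVSC value is near 0 and negative under TMM.

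On mature reads that match no other feature, miR-107 moved in opposite directions with MDI, with log2 ratios of -1.66 in SVSC and 0.44 in IVSC (difference -2.10). On exact mature reads scaled to miRNA reads the values were -0.91 and 1.07 (difference -1.98). Neither difference was tested against replicates, and the exact reads are few (15 in SVSC MDI, 196 in SVSC, 40 in IVSC MDI and 17 in IVSC).

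Among entries that the comparisons do not use, 5 Rfam sequences of the mir-103 family held 49 reads in IVSC MDI, 28 in IVSC, 6 in SVSC MDI and 141 in SVSC, above the 3 reads that a count of 0 allows. These came to between 0.0786% and 0.121% of the miR-103 hairpin reads.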

How the results depend on the processing

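Of the alternatives tried, 81 left a result on its side of the threshold and in its direction. For miR-107 with MDI in IVSC, the log2 ratio of -0.75 became 1.16 on exact mature reads scaled to exact reads and 0.44 on unshared mature reads, an alternative chosen after seeing the data. That of miR-103 in IVSC became -0.013 under TMM. The log2 ratio of 1.04 for miR-107 in SVSC over IVSC fell short of 2-fold on mature reads scaled to mature reads (0.74). The difference of its MDI responses passed 1 log2 unit with all reads (-1.22), without miR-21 (-1.003), on exact reads scaled to exact reads (-2.46) and on unshared reads (-2.10). Reads of miR-107 per 100 of miR-103 in IVSC MDI, IVSC, SVSC MDI and SVSC moved to 0.759, 1.30, 1.19 and 0.972 on mature reads, to 0.111, 0.0518, 0.325 and 0.170 on exact reads, and to 0.480, 0.823, 0.836 and 0.652 with both copies of miR-103 summed. The causes of these changes were not tested, except that summing the copies counts the shared reads of miR-103 again.

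No setting of the shared fit called a member, with adjusted p from 0.132 to 0.508 for MDI and from 0.545 to 0.984 for origin (edgeR or DESeq2). The number of miRNAs it called for MDI was 19 with edgeR, 36 with DESeq2 and 31 on mature reads, and for origin 5 with edgeR and 10 with DESeq2. No paired analysis was possible because each group has 1 library, and leaving out a library leaves the fit no residual degree of freedom. Depth limits exact reads of miR-107 most, at 15 in SVSC MDI.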
